A study of Mus musculus with 5 samples.

Results

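The mouse cytochrome P450 genes were described in single kidney nuclei, without injury and after ischaemia-reperfusion injury (IRI). Members were all genes of the deposited gene lists whose symbol begins with Cyp and a digit, apart from Cyp24a1, Cyp27b1 and symbols holding "-ps". This gave 99 members of 27998 genes, after 3 of 102 such rows had been left out. Of the 99 members, 98 are annotated as protein coding and Cyp4x1os is an antisense gene.

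Cytochromes P450 are haem enzymes that put an oxygen atom into a substrate, using electrons passed on by a reductase. Members in the endoplasmic reticulum receive them from cytochrome P450 reductase (Por), and members in mitochondria from ferredoxin (Fdx1) and its reductase (Fdxr). In the kidney the proximal tubule (PT) is their best-known site, where Cyp2j and Cyp2c enzymes make epoxides of arachidonic acid, Cyp4a enzymes hydroxylate the far end of fatty acids, and other members handle sterols, steroid hormones, retinoids and foreign compounds. Several kidney P450 genes of the mouse respond to androgens, and the animals here were all male.

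There were 5 libraries of nuclei (10x Genomics droplets), 1 for each group, from male mice aged 10 to 12 weeks and weighing 25 to 28 g. All animals carried Six2-TGC, Rosa26rtTA and pTRE-H2BeGFP and ate doxycycline food at 625 mg per kg, so that descendants of cells with an active Six2 promoter, a marker of nephron progenitors, have green fluorescent (GFP) chromatin. Nuclei of perfused kidneys were sorted for DNA stain and then by GFP. The 2 groups without injury held GFP-negative and GFP-positive nuclei, and the 3 groups with IRI held GFP-positive nuclei taken 64 h, 96 h or 28 d after both renal pedicles were clamped. Serum creatinine (mg/dl) was given as 0.122 for both libraries without injury and as 0.375, 0.312 and 0.144 for the 3 times in order, and urea nitrogen (mg/dl) as 26.1, 37.0, 91.8 and 31.7. The sample labels say no injury where the treatment protocol speaks of sham surgery, so whether these controls were operated on is unclear. Surgery was under ketamine and xylazine, and the number of animals behind each library is not given in the sources used here.

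Library totals ran from 1922002 unique molecular identifiers (UMIs) at 96 h to 7153971 in the GFP-positive library without injury, with medians of 484 to 1793.5 UMIs per nucleus. Any pair of libraries shared 9 to 20 barcodes. Nuclei were grouped into 23 clusters without any P450 gene among the clustering genes, and clusters were named "-like" from marker genes alone; 7 clusters were PT-like and 6 stayed unnamed. In the GFP-positive libraries, PT-like nuclei numbered 2292 in the control and 1835, 2306 and 2177 at 64 h, 96 h and 28 d. The library labelled as non-nephron (GFP-negative) still held 382 PT-like nuclei of 3338. No group had a replicate, so differences between groups could not be tested: intervals in brackets are exact 95% intervals for counting error only, and a member was counted as lower or higher when its ratio reached 2-fold. Levels are UMIs of a class summed within a library, per 1000000 UMIs of that sum (CPM). A lower sum cannot tell fewer transcribing nuclei from less RNA per nucleus.

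The members carried 53242 UMIs in the 5 libraries, which was 0.200% of UMIs in the GFP-negative library, 0.282% in the GFP-positive library without injury, then 0.192% at 64 h, 0.203% at 96 h and 0.345% at 28 d. Of the 99 members, 20 had 0 UMIs, 33 had 1 to 19 and 46 had at least 20. Counts were concentrated: the 4 members with the most UMIs held 59.5% and the 12 with the most held 82.8%. UMIs were not divided by gene length, so this order ranks counts and not transcript levels. The 8 Cyp2j genes, which lie together on chromosome 4 from 96027534 to 96664154 (GRCm38), held 34.6% of the UMIs. The 15 Cyp2c genes gave 789 UMIs, from 13 of them, and the 9 Cyp3a genes, the family of the main drug-metabolizing P450 enzymes of liver, gave 39 from 4.

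Most members sit in tandem arrays: 77 of 99 lay within 500 kb of another member, in 10 gene clusters. Of the array of 11 Cyp4a, Cyp4b and Cyp4x genes on chromosome 4 (115106323 to 115647723), 8 had at least 20 UMIs. In the Cyp2d array on chromosome 15 (82370527 to 82794294) it was 4 of 8, and in the mixed array on chromosome 7 with Cyp2a, Cyp2b, Cyp2f2 and Cyp2s1 (25802475 to 27158668) it was 6 of 13. The Cyp2c array on chromosome 19 (39007019 to 40187333) had 3 of 14 at that level and the Cyp3a array on chromosome 5 (145345279 to 146113287) 0 of 8. Close copies limit what a read can tell: of all stretches of 50 bases in their transcripts, Cyp4a12a and Cyp4a12b share 48.9% and 49.4%, Cyp2a4 and Cyp2a5 36.1% and 28.1%, and Cyp3a41a and Cyp3a41b 93.7% and 93.5%. Cyp2a4, Cyp2f2, Cyp2s1, Cyp2u1 and Cyp51 overlap a gene on the other strand, and the strand setting of the counting is not given in the sources used here, so their counts are uncertain to that extent.

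Upstream sequences of 77 members were in a RefSeq promoter table (GRCm38.p6). Cyp2a5 and Cyp2a4 are shown because these neighbours, coumarin and testosterone hydroxylases, were called at different times after injury, and the 250 bases before their RefSeq starts match at 97.6% of 251 aligned positions. Capitals mark the bases that differ from, or are missing in, the other gene. Cyp2a5 is given from chr7:26835089-26835338 and Cyp2a4 from chr7:26306942-26307191, both on the plus strand and written 5′ to 3′. The RefSeq starts lie downstream of the GENCODE gene starts given elsewhere for the 4 genes shown, so each window holds the first bases of the GENCODE gene.
Cyp2a5: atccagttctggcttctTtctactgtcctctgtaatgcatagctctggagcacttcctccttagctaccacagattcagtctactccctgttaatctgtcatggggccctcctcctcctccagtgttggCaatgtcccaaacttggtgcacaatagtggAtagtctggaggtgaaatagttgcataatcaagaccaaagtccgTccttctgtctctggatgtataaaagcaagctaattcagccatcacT
Cyp2a4: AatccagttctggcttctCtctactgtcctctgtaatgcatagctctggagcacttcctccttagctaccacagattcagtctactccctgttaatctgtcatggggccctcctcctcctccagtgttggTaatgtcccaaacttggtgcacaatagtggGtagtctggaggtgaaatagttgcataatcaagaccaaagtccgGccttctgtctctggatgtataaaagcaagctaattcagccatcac

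Cyp2d26, lower at 64 h, and Cyp2e1, higher at 64 h, are shown with motif matches in capitals. Cyp2d26 comes from chr15:82794246-82794495 on the minus strand and Cyp2e1 from chr7:140763569-140763818 on the plus strand.
Cyp2d26: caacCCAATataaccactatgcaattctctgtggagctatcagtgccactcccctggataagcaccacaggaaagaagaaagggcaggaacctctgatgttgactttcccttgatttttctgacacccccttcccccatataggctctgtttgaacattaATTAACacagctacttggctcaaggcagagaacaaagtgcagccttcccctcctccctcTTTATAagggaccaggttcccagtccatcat
Cyp2e1: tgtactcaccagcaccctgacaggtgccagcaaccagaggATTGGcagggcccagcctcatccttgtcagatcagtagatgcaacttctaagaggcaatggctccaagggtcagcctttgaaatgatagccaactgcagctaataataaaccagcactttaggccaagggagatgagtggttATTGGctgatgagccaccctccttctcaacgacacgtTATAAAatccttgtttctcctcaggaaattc

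Short motifs were searched on both strands of these windows. The letters of the TATA box, TATAAA, were present for 29 of 77 members, against 14.3% of 27025 genes. Their position was not limited, and some matches lay far from the start, as in Cyp3a11 at 234 bases. The motif GTTAAT was present for 11 members (7.49% of genes). The core of the C/EBP site, TTGCNNAA, was present for 16 (10.8%), and the Ah receptor core, GCGTG, for 16 (30.9%). The motif CCAAT was present for 32 (37.5%) and the Nrf2 core, TGACNNNGC, for 3 (11.5%). The matches printed in the 4 windows do not overlap each other. Both Cyp2a promoters held TATAAA, 29 bases before the start in Cyp2a5 and 28 in Cyp2a4, and TTGCATAA at 71 and 70 bases. Both also held GTTAAT, at 161 and 160 bases. None of the bases in which Cyp2a5 and Cyp2a4 differ falls into a match. Cyp2d26 held a TATA box read from the other strand as TTTATA at 31 bases, ATTAAC (the reverse of GTTAAT) at 90 and CCAAT at 246. Cyp2e1 held TATAAA at 31 bases and ATTGG, the reverse of CCAAT, at 68 and 210. These are matches of letters and were not shown to be bound.

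The segment pattern without injury was centred on the PT. With both libraries without injury added, 40 members had at least 20 UMIs, and 18 of these had their highest level in PT-like nuclei, where 10.9% of all genes with that many UMIs were highest. For 8 of the 18 (Cyp7b1, Cyp2j13, Cyp2j5, Cyp4a12b, Cyp4a14, Cyp4a10, Cyp4b1 and Cyp2d26) the interval of the ratio over the next class excluded 1. Levels outside the PT were read in the GFP-negative library, in which 11 PT marker genes reached 3.40% (TAL-like) to 14.7% (macrophage and dendritic-like) of their PT level in the 8 other classes, with single markers from 0.649% to 83.3% and none at 0. In the GFP-positive library the range was 9.85% (TAL-like) to 44.4% (DCT-like) over the 3 other classes with at least 50 nuclei. TAL is the thick ascending limb and DCT the distal convoluted tubule.

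**Figure D1:**
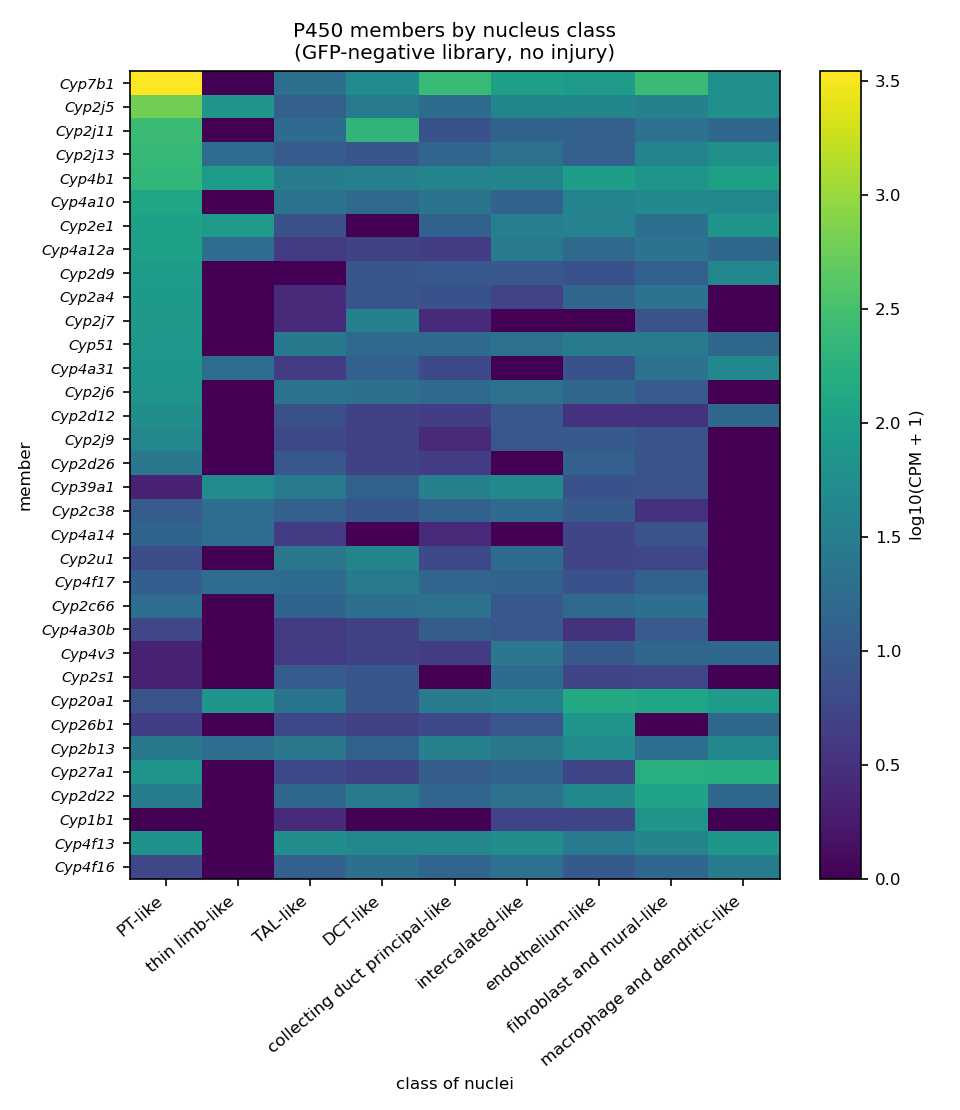
Level of each member with at least 20 UMIs in the GFP-negative library without injury, as log10(CPM + 1) by color, in 9 classes of nuclei named from markers. The column of PT-like nuclei holds the brightest cells, with Cyp7b1 at 3497 CPM, while Cyp20a1, Cyp26b1 and Cyp1b1 are brighter in endothelium-like or fibroblast and mural-like nuclei.

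Cyp7b1, the oxysterol hydroxylase of the alternative bile acid pathway (chromosome 3, 18071950 to 18243338, minus strand), had 3497 CPM in PT-like nuclei of the GFP-negative library. Its next highest named classes were fibroblast and mural-like nuclei with 263 CPM and collecting duct principal-like nuclei with 254 CPM. Cyp2j5, a renal epoxygenase (chromosome 4, 96628773 to 96664154, minus strand), had 605 CPM in PT-like nuclei and at most 69.8 CPM elsewhere, in thin limb-like nuclei on 4 UMIs. Cyp4b1, a fatty acid and foreign compound hydroxylase (chromosome 4, 115624725 to 115647723, minus strand), had 218 CPM in PT-like nuclei, 95.04 CPM in endothelium-like nuclei on 42 UMIs and 103 CPM in macrophage and dendritic-like nuclei on 7 UMIs. In this library its contrast was thus smaller than that of Cyp7b1 or Cyp2j5. Cyp2j13, another Cyp2j gene (96027534 to 96077546, minus strand), had 237 CPM in PT-like nuclei and 59.0 CPM in macrophage and dendritic-like nuclei on 4 UMIs. The PT-like nuclei differ between the sort gates: 54.7% of the GFP-negative ones were S3-like (the last part of the PT), against 9.42% of the GFP-positive ones. In PT-like nuclei of the GFP-positive library without injury Cyp7b1 had 532 CPM, Cyp2j5 565 CPM, Cyp4b1 458 CPM and Cyp2j13 421 CPM.

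With both libraries added, Cyp2j11, Cyp2j7 and Cyp2j6 were the Cyp2j genes with their highest level in DCT-like nuclei. For Cyp2j7 and Cyp2j6 this was by 1.05-fold [0.573 to 1.77] and 1.01-fold [0.588 to 1.64] over PT-like ones. Cyp2j11 had 256 CPM [223 to 292] in PT-like and 207 CPM [155 to 271] in DCT-like nuclei of the GFP-negative library, and no more than 21.2 CPM in any other named class. An unnamed cluster led by Egfem1 and Slc8a1 held it too, at 225 CPM on 24 UMIs. With both libraries added the order of these classes was reversed, with DCT-like nuclei 1.26-fold [1.01 to 1.56] above PT-like ones. That sum mixes the sort gates unevenly: 2292 PT-like nuclei were GFP-positive and 382 GFP-negative, against 87 and 166 DCT-like ones. GFP-positive DCT-like nuclei had PT markers at 44.4% of their PT level. The part of the gates in this ratio was not tested. PT markers in the DCT-like nuclei of the GFP-negative library were at 5.43% of their PT level. Cyp2u1, a fatty acid hydroxylase, was also higher in distal segments, with 39.1 CPM in DCT-like and 24.4 CPM in TAL-like against 5.87 CPM in PT-like nuclei, on 10, 15 and 5 UMIs. DCT-like was the highest class for 5 members with both libraries added (all genes 5.72%). The interval excluded 1 for Cyp2j11 alone, whose PT-like level was the higher one in the GFP-negative library, with overlapping intervals.

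Outside the tubule, macrophage and dendritic-like nuclei were the highest class for 5 members, endothelium-like for 3 and fibroblast and mural-like for 3. The interval excluded 1 for Cyp1b1 and Cyp2d22 among these. Cyp26b1, which breaks down retinoic acid, had 31 UMIs and 70.1 CPM in endothelium-like nuclei and 0 UMIs in fibroblast and mural-like ones. Cyp1b1, a hydroxylase of estrogens and polycyclic aromatic compounds, had 29 UMIs and 68.2 CPM in fibroblast and mural-like nuclei and 0 UMIs in PT-like ones. With both libraries added it was 14.9-fold [3.80 to 128] higher there than in the next class, endothelium-like nuclei. Cyp20a1, a member without a known substrate, had 145 CPM in endothelium-like, 120 CPM in fibroblast and mural-like and 7.05 CPM in PT-like nuclei. The first pair does not differ beyond its counting intervals, [112 to 185] and [89.3 to 158]. Endothelium-like nuclei were the highest class for 3 members (all genes 14%), the last being Cyp2b13 with 49.8 CPM against 25.8 CPM in PT-like nuclei.

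Cyp2d22 was the Cyp2d gene of the stroma, with 108 CPM in fibroblast and mural-like nuclei against 30.5 CPM in PT-like ones. Cyp27a1, the mitochondrial sterol side-chain hydroxylase, had 165 CPM in fibroblast and mural-like, 162 CPM in macrophage and dendritic-like and 66.9 CPM in PT-like nuclei. Fibroblast and mural-like nuclei were the highest class for 3 members (all genes 9.5%). Intercalated-like nuclei were so for 3 (all genes 9.78%), of which the interval excluded 1 for Cyp2s1 alone. One of the latter, Cyp39a1, an oxysterol hydroxylase like Cyp7b1, had the opposite distribution: 1.17 CPM in PT-like nuclei on 1 UMI against 49.1 CPM in intercalated-like, 33.6 CPM in collecting duct principal-like and 27.6 CPM in TAL-like ones, and 3 UMIs in thin limb-like ones. The 5 members of the macrophage and dendritic-like class compare with 26.5% of all genes. The last 3 classes had 1 member each: Cyp2c38 in TAL-like (all genes 7.91%), Cyp4a30b in collecting duct principal-like (all genes 7.86%) and Cyp2c44 in thin limb-like nuclei (all genes 7.8%).

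Within the PT the members were split by segment. S1-like and S3-like nuclei, the first and last part of the PT, were named from transporter genes, and a further sub-cluster led by Slco1a1 lay beside them with no segment name. In the GFP-positive library without injury these held 1018, 216 and 960 nuclei. Slc7a13, an S3 marker gene, was among the genes leading the Slco1a1-led sub-cluster. Whether that sub-cluster holds nuclei of S3 was not tested. Of 26 members with at least 40 UMIs, 6 were at least 2-fold higher in S3-like than in S1-like nuclei (all genes 10.6%) and 6 at least 2-fold higher in S1-like ones (all genes 8.2%). Cyp7b1 was the extreme case, with 4292 CPM in S3-like, 15.7 CPM in S1-like and 23.1 CPM in Slco1a1-led nuclei, a ratio of 273 [187 to 415] between S3-like and S1-like. Of its PT-like UMIs, 96.8% lay in S3-like nuclei, which were 9.42% of PT-like nuclei.

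The other members above 2-fold in S3-like nuclei were Cyp2a4 (67.0 against 4.66 CPM, 14.4-fold [6.62 to 35.6]), the male-type testosterone hydroxylase Cyp2d9 (136 against 22.2 CPM, 6.13-fold [4.11 to 9.28]), Cyp2j11 (4.62-fold), Cyp2j7 (3.54-fold) and the male-type fatty acid hydroxylase Cyp4a12a (3.08-fold). Above 2-fold in S1-like nuclei were Cyp2d26 (101 against 25.8 CPM, 3.93-fold [2.32 to 7.18]), Cyp2c44 (3.05-fold [0.423 to 134], with 1 UMI in S3-like nuclei), Cyp2d22 (2.77-fold), Cyp4a12b (2.71-fold), Cyp27a1 (2.54-fold) and Cyp2d12 (2.48-fold). Cyp2d and Cyp4a thus each held members on both sides, while the 2 Cyp2j genes past the limit were both on the S3-like side. Cyp4a12a and Cyp4a12b, whose transcripts share much sequence, lay on opposite sides of this S1-like and S3-like comparison. Over all 3 sub-clusters, 13 of the 26 members were highest in Slco1a1-led nuclei (all genes 25.5%). S3-like nuclei were highest for 10 (all genes 46.3%) and S1-like ones for 3 (all genes 28.2%). Cyp2c44, Cyp4a12b, Cyp27a1 and Cyp2d12 were among those highest in Slco1a1-led nuclei, Cyp4a12b with 63.1 CPM there against 28.0 CPM in S1-like ones. Cyp2d9 was not confined to S3-like nuclei: it had 120 CPM on 285 UMIs in Slco1a1-led ones, against 136 CPM on 79 UMIs in S3-like ones. Cyp2e1, an ethanol-oxidizing enzyme, was highest in the Slco1a1-led nuclei with 159 CPM, against 30.3 CPM in S1-like and 44.7 CPM in S3-like nuclei.

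Members also differed between the sort gates. Over all nuclei without injury, 14 of 38 members with at least 40 UMIs were at least 2-fold higher in the GFP-positive library (all genes 5.85%) and 9 in the GFP-negative one (all genes 20.3%). Higher in GFP-positive nuclei were for instance Cyp4a14 (7.18-fold [4.55 to 11.9]), Cyp2d12 (7.08-fold [5.45 to 9.34]) and Cyp2j13 (5.11-fold [4.49 to 5.83]). Higher in GFP-negative nuclei were Cyp26b1, with 44 UMIs against 3 and a GFP-positive level 0.0367 [0.00728 to 0.114] of the GFP-negative one, and Cyp1b1, 10.9-fold higher on 35 UMIs against 6. Cyp7b1 was 2.01-fold higher in GFP-negative nuclei, in whose PT-like class 54.7% of nuclei were S3-like. With PT-like nuclei alone, 5 of 26 members were higher in GFP-positive nuclei (all genes 3.94%), namely Cyp2d12, Cyp2d26, Cyp4a12b, Cyp4a14 and Cyp4b1. In the GFP-negative ones 5 were higher (all genes 9.14%), namely Cyp2a4, Cyp2j6, Cyp2j7, Cyp51 and Cyp7b1.

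After injury the PT-like nuclei lost some members and gained others. Of the 99 members, 31 had at least 40 UMIs over the PT-like nuclei of the 4 GFP-positive libraries, and 68 had fewer; Cyp2j8 with 54 UMIs was the lowest inside this limit and Cyp2f2 with 32 the highest outside it. At 64 h, 8 of 31 were lower (all genes 5.81%) and 4 higher (all genes 10.1%). At 96 h, 7 were lower (all genes 6.55%) and 5 higher (all genes 22.6%). At 28 d, 0 were lower (all genes 3.03%) and 2 higher (all genes 5.24%). The share of lower members was therefore above the background at 64 h and 96 h, while the share of higher members was near or below it. The median log2 ratio of the 31 was -0.36 at 64 h, -0.13 at 96 h and 0.18 at 28 d, against 0.16, 0.28 and 0.07 for 11236 genes.

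**Figure D2:**
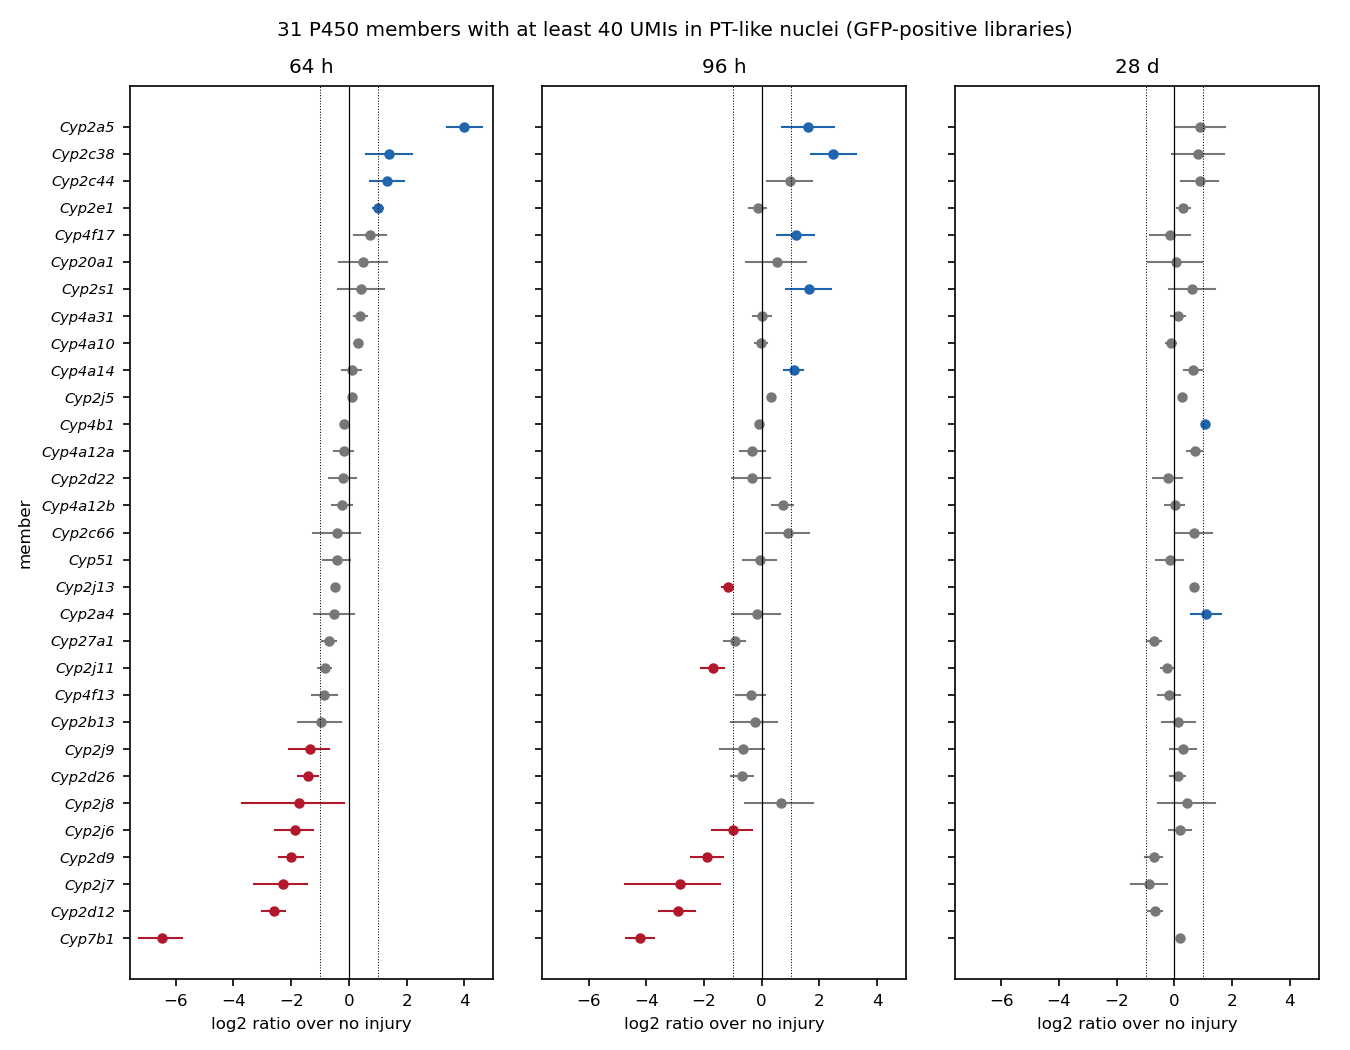
Log2 ratio of each of 31 members to the GFP-positive library without injury in PT-like nuclei, at 64 h, 96 h and 28 d after IRI, with bars for counting error. Red points lie at or below -1 and blue points at or above 1; Cyp7b1 lies lowest at 64 h and 96 h, and no point is red at 28 d.

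The 3 comparisons share the library without injury. Cyp7b1, Cyp2d12, Cyp2d9, Cyp2j6 and Cyp2j7 were lower at both 64 h and 96 h. All 10 members lower at either time were within 2-fold of the level without injury at 28 d, when only 3.03% of all genes were lower. The same share for all genes that were lower early is not given here, so this is not read as particular to the members. The limit is also wide, with a lowest Cyp2j ratio of 0.546 at 28 d. The PT-like nuclei were not made up alike. S1-like and Slco1a1-led nuclei were 44.4% and 41.9% of them without injury, a Dpp4-led cluster was 45.1% at 64 h, and clusters led by 1700034P13Rik and by C3 were 46.3% and 43.6% at 96 h. At 28 d, S1-like nuclei were 44.6% and Slco1a1-led ones 27.2% again. The Dpp4-led, 1700034P13Rik-led and C3-led clusters each came mostly from 1 library, so a cluster and its library cannot be told apart there. Scaling by trimmed means (TMM) moved all log2 ratios by -0.21 at 64 h, -0.41 at 96 h and -0.12 at 28 d, and the ratios given here are without it.

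Cyp7b1 was the member with the deepest loss and a return by 28 d. It had 2580 UMIs (532 CPM) in PT-like nuclei without injury, 16 UMIs (5.98 CPM) at 64 h, 37 UMIs (28.8 CPM) at 96 h and 1478 UMIs (614 CPM) at 28 d. Its 64 h and 96 h levels were 89.0-fold and 18.5-fold lower than without injury, and the 28 d level was 1.15-fold [1.08 to 1.23] of it. The S3-like nuclei that carried it were also fewer at the early times: 216, 16, 28 and 176 in the order of the 4 libraries, or 9.42%, 0.872%, 1.21% and 8.08% of PT-like nuclei. In the nuclei named S3-like at the early times Cyp7b1 was also lower. S3-like nuclei had 4292 CPM without injury, 225 CPM on 8 UMIs at 64 h and 457 CPM on 11 UMIs at 96 h. The ratios were 0.0523 [0.0226 to 0.103] and 0.106 [0.0531 to 0.191]. These early values rest on 16 and 28 nuclei, fewer than the 50 required of a sub-cluster in the plot of levels by sub-cluster. Which cluster held former S3 nuclei at these times was not tested. At 28 d S3-like nuclei had 4955 CPM, and 90.5% of the PT-like UMIs of Cyp7b1 lay in them.

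Outside S3-like nuclei Cyp7b1 was low throughout, but not evenly so. Slco1a1-led nuclei had 23.1 CPM without injury and 128 CPM at 28 d, a ratio of 5.54 [3.97 to 7.82]. S1-like nuclei had 27, 4, 0 and 17 UMIs in the order of the libraries, or 15.7 CPM without injury and 5.51 CPM at 64 h. At 96 h, 24 of the 37 PT-like UMIs came from 1700034P13Rik-led nuclei, at 35.3 CPM. Without the S3-like and Slco1a1-led nuclei the ratio of Cyp7b1 was 0.213 [0.0839 to 0.480] at 64 h. At 96 h it was 1.41 [0.793 to 2.49] and at 28 d 1.72.

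**Figure D3:**
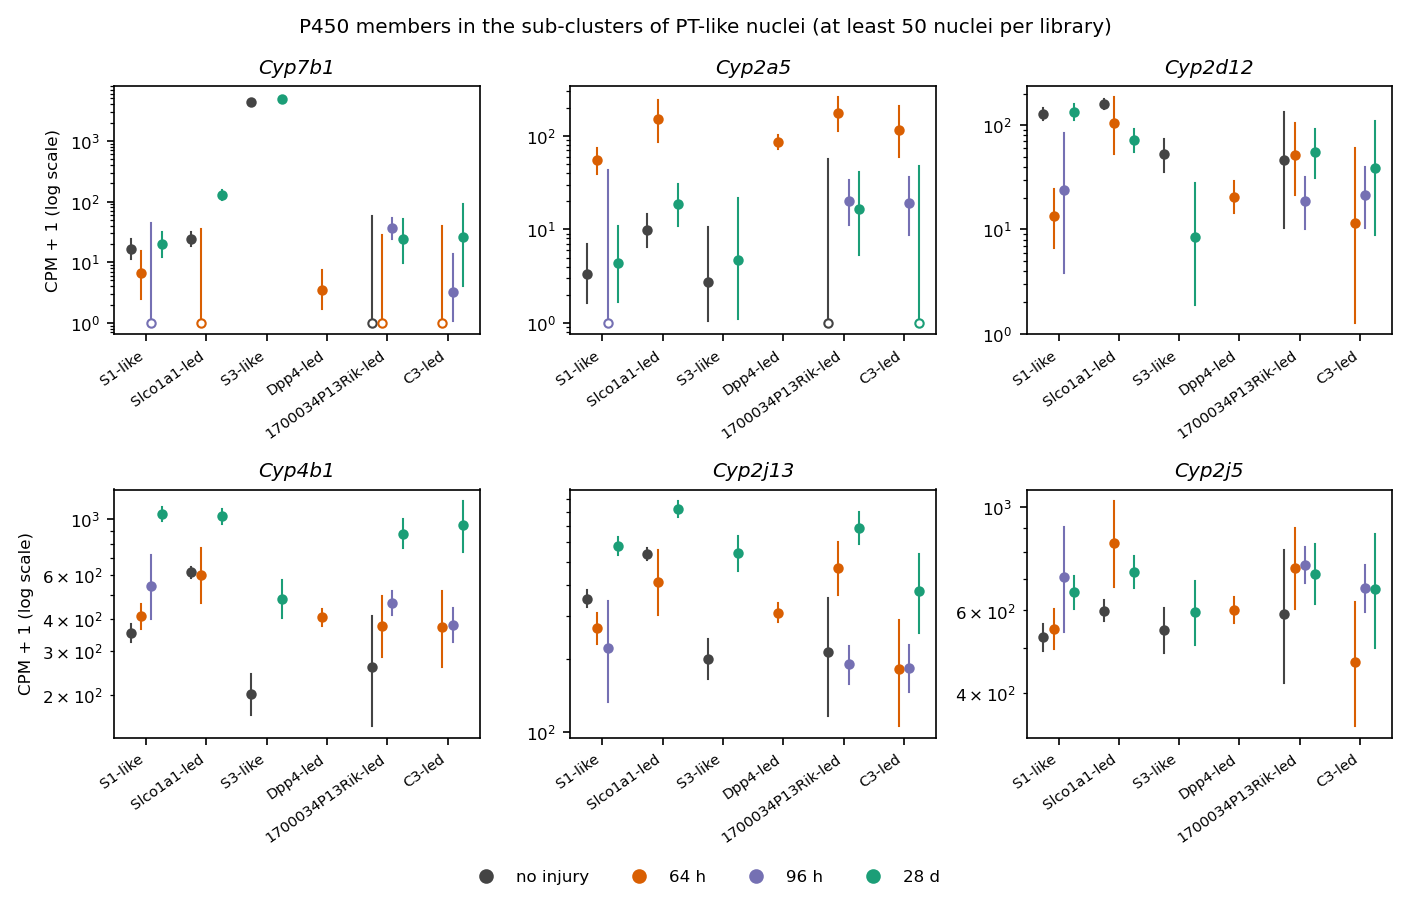
Levels of 6 members in the sub-clusters of PT-like nuclei with at least 50 nuclei in a library, as CPM + 1 on a log axis, colored by library; bars are counting intervals and open circles are 0 UMIs. Cyp7b1 is at 4292 CPM or more in S3-like nuclei and at most 128 CPM in every other sub-cluster drawn, and Cyp2a5 is highest at 64 h in each sub-cluster drawn for that time.

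Of the Cyp2d genes, enzymes of steroids and drugs, Cyp2d12 and Cyp2d9 were lower at both early times and at 28 d lay nearer to the control but still below it. Cyp2d12 had 644 UMIs (133 CPM) without injury, 59 (22.0 CPM) at 64 h, 23 (17.9 CPM) at 96 h and 200 (83.1 CPM) at 28 d. The early libraries lie far below the control and the 28 d library in between, with ratios of 0.166 [0.125 to 0.217], 0.135 [0.0848 to 0.204] and 0.626 [0.531 to 0.735]. In S1-like nuclei alone Cyp2d12 was 0.0970 [0.0438 to 0.188] of the level without injury at 64 h and 1.05 [0.833 to 1.32] at 28 d, while in Slco1a1-led nuclei it was 0.447 [0.334 to 0.588] at 28 d. Cyp2d9 had 85.8 CPM without injury, then 21.3 at 64 h, 23.3 at 96 h and 52.0 at 28 d. In S1-like nuclei alone Cyp2d9 was 0.186 [0.0368 to 0.588] of its level at 64 h and, on 2 UMIs, 1.04 [0.122 to 4.04] at 96 h. Cyp2d26 had 79.2, 29.9, 49.8 and 85.6 CPM and was called lower at 64 h only (0.377 [0.293 to 0.481]). Cyp2d22, the stromal one, had ratios of 0.860, 0.786 and 0.857. In all, 3 of 4 Cyp2d members were lower at 64 h (all genes 5.81%), 2 at 96 h (6.55%) and 0 at 28 d (3.03%).

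Of 7 Cyp2j members with at least 40 UMIs, 4 were lower at 64 h (all genes 5.81%), 4 at 96 h (6.55%) and 0 at 28 d (3.03%). Cyp2j5, which held the most UMIs among them, was not among these: it had 2740 UMIs (565 CPM) without injury, 1617 (604 CPM) at 64 h, 909 (707 CPM) at 96 h and 1637 (681 CPM) at 28 d, with ratios of 1.07, 1.25 and 1.20. Cyp2j13, at the other end of the array, had 421 CPM without injury, then 302 at 64 h, 187 at 96 h and 666 at 28 d. The early levels thus lay below the control and the late one above it. Its ratios were 0.718 [0.661 to 0.780], 0.444 [0.387 to 0.508] and 1.58 [1.48 to 1.69]. At 28 d Cyp2j13 was higher in S1-like (1.64-fold), Slco1a1-led (1.54-fold) and S3-like nuclei (2.71-fold [2.11 to 3.49]).

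Cyp2j11 had 145 CPM without injury, then 81.1 at 64 h, 45.1 at 96 h and 122 at 28 d, and was called lower at 96 h (0.311 [0.234 to 0.407]). Cyp2j7 had 107, 12, 4 and 29 UMIs and was the lowest of the subfamily, 4.92-fold lower at 64 h and 7.09-fold lower at 96 h. Cyp2j6 had 32.8, 8.97, 16.3 and 37.4 CPM, and its ratio of 0.498 [0.3002 to 0.788] at 96 h only just met the limit. Cyp2j9 (0.393 [0.239 to 0.621]) and Cyp2j8 (0.302 [0.0761 to 0.879], on 24 UMIs against 4) were called lower at 64 h only. Neighbours in 1 array thus had unlike ratios, from 0.203 for Cyp2j7 to 1.07 for Cyp2j5 at 64 h.

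**Figure D4:**
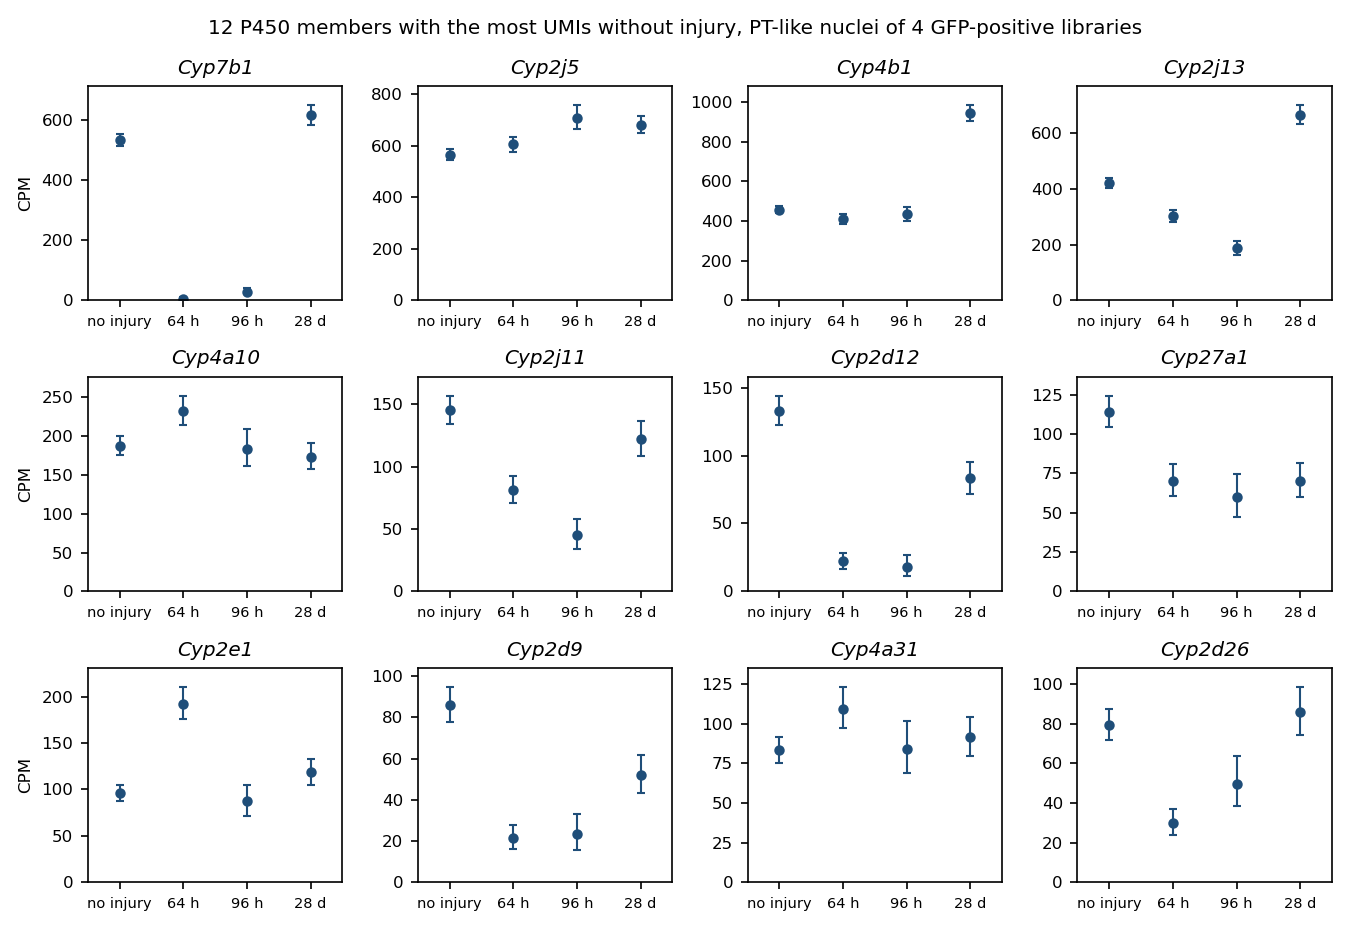
Levels of the 12 members with the most UMIs without injury, in CPM of PT-like nuclei, in the 4 GFP-positive libraries, each point 1 library with its counting interval. Cyp7b1, Cyp2d12, Cyp2d9 and Cyp2d26 dip at 64 h, Cyp2j5 stays between 565 and 707 CPM, and Cyp4b1 is highest at 28 d.

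Cyp2a5, the coumarin hydroxylase shown above (chromosome 7, 26835305 to 26843548, plus strand), was the member with the largest gain. It had 26 UMIs (5.36 CPM) without injury, 226 (84.4 CPM) at 64 h, 21 (16.3 CPM) at 96 h and 24 (9.98 CPM) at 28 d. The 64 h library stands alone above the others, and the ratios were 15.7 [10.5 to 24.6], 3.05 [1.63 to 5.63] and 1.86 [1.02 to 3.37]. At 64 h Cyp2a5 was found across sub-clusters, with 85.7 CPM in Dpp4-led, 174 CPM in 1700034P13Rik-led, 116 CPM in C3-led, 150 CPM in Slco1a1-led and 53.7 CPM in S1-like nuclei. The S1-like nuclei had 4 UMIs (2.33 CPM) without injury and 39 at 64 h, a ratio of 23.0 [8.31 to 88.7], and Slco1a1-led nuclei had a ratio of 16.99 [8.29 to 34.2]. Cyp2a5 is 1 of the 10 genes that lead the Dpp4-led cluster, although no P450 gene was used for clustering. The same holds for Cyp7b1 in the S3-like cluster and for Cyp2d9 in the Slco1a1-led cluster.

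Its neighbour Cyp2a4 (26307169 to 26315088, plus strand) did not share this. Cyp2a4 had 67, 26, 16 and 71 UMIs, or 13.8, 9.71, 12.5 and 29.5 CPM, with ratios of 0.703 [0.429 to 1.12] at 64 h and 2.14 [1.51 to 3.03] at 28 d. Both neighbours were thus called higher, but at different times: Cyp2a5 at 64 h and 96 h, and Cyp2a4 at 28 d. How reads from their shared stretches were assigned is not given in the sources used here.

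Other members higher at 64 h were Cyp2e1 and the Cyp2c genes Cyp2c38 and Cyp2c44. Cyp2e1 (140763739 to 140774987 on chromosome 7, plus strand) had 95.7 CPM without injury, then 192 at 64 h, 87.2 at 96 h and 118 at 28 d. Its 64 h ratio of 2.01 [1.77 to 2.28] was at the limit of the call and did not reach it with TMM factors. In S1-like nuclei alone, where Cyp2e1 was low without injury, the ratio was 4.18 [2.94 to 5.99] at 64 h, and in Slco1a1-led nuclei 1.53 [0.989 to 2.28]. Cyp2c44, an epoxygenase, had 44, 60, 23 and 40 UMIs and ratios of 2.47 [1.65 to 3.73], 1.97 and 1.83. Cyp2c38 had 25, 36, 37 and 22 UMIs and ratios of 2.61 [1.52 to 4.53], 5.58 [3.27 to 9.68] and 1.77. The last Cyp2c member with enough UMIs, Cyp2c66, had ratios of 0.755, 1.89 and 1.60.

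At 96 h the higher members besides Cyp2c38 and Cyp2a5 were Cyp2s1 (3.11-fold [1.82 to 5.28]), Cyp4f17 (2.26-fold [1.46 to 3.48]) and Cyp4a14 (2.16-fold [1.71 to 2.71]). With TMM factors Cyp4f17 and Cyp4a14 were not called. Cyp4a14, a fatty acid hydroxylase gene induced through PPAR alpha in liver, had 43.3 CPM without injury, then 46.7 at 64 h, 93.4 at 96 h and 67.3 at 28 d. The other Cyp4a genes changed little in ratio, and none was called at 64 h or 28 d. Cyp4a10 had 187, 232, 184 and 173 CPM, and Cyp4a31 83.3, 109, 84.1 and 91.5 CPM. Cyp4a12a had ratios of 0.881, 0.801 and 1.63, and Cyp4a12b 0.844, 1.66 and 1.00. Of the Cyp4f genes, Cyp4f13 had ratios of 0.554, 0.770 and 0.874. Cyp27a1 stayed below the control at each time, with 114, 70.2, 59.9 and 70.3 CPM and ratios of 0.616, 0.525 and 0.616, without reaching the limit. With TMM factors Cyp27a1 was past the limit at 96 h. Cyp51, the lanosterol demethylase of cholesterol synthesis, had ratios of 0.749, 0.965 and 0.894, each with an interval that spans 1.

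Cyp4b1 and Cyp2a4 were the members called higher at 28 d. Cyp4b1 had 2219 UMIs (458 CPM) without injury, 1100 (411 CPM) at 64 h, 558 (434 CPM) at 96 h and 2270 (944 CPM) at 28 d. The early libraries lie close to the control, and the 28 d library lies alone, with a ratio of 2.06 [1.94 to 2.19]. With TMM factors neither Cyp4b1 nor Cyp2a4 was called. The 28 d gain of Cyp4b1 appeared at 2.97-fold [2.68 to 3.30] in S1-like and 2.40-fold [1.85 to 3.10] in S3-like nuclei. In Slco1a1-led nuclei this gain was 1.67-fold [1.53 to 1.82], below the 2-fold limit. Beside it, Cyp4b1 in TAL-like nuclei was 101 CPM on 40 UMIs without injury and 257 CPM on 29 UMIs at 28 d, a ratio of 2.55 [1.53 to 4.22], while the 11 PT markers in TAL-like nuclei stood at 9.85% and 12.4% of their PT level. The part of RNA from outside the nucleus in this was not tested.

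The comparison was repeated in S1-like nuclei alone. Of 24 members with at least 40 UMIs there, 8 were lower at 64 h (all genes 4.1%), namely Cyp2b13, Cyp2d12, Cyp2d26, Cyp2d9, Cyp2j6, Cyp2j7, Cyp4a12b and Cyp7b1. The 2 higher ones were Cyp2a5 and Cyp2e1 (all genes 8.78%). At 96 h, with 155 nuclei, 7 were lower (all genes 16.5%) and 2 higher (all genes 19%). Of those 7, Cyp2a5, Cyp2b13, Cyp2j7 and Cyp7b1 had 0 UMIs at 96 h, and a floor of 3 counts gives no 2-fold bound for them. At 28 d, Cyp2d9 was lower (0.403 [0.163 to 0.878], all genes 3.27%) and Cyp4a14 and Cyp4b1 were higher (all genes 3.59%). In S3-like nuclei at 28 d, 2 of 14 members were higher, Cyp4b1 and Cyp2j13 (all genes 3.55%), and 0 lower (all genes 3.04%). In Slco1a1-led nuclei at 28 d, Cyp2d12 and Cyp2j7 were lower (all genes 2.64%) and Cyp2a4, Cyp4a12a and Cyp7b1 higher (all genes 3.45%), of 25 members. Cyp4a12a there had 48.0 CPM without injury and 138 CPM at 28 d.

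Outside the PT few members had enough UMIs. In TAL-like nuclei 2 did, Cyp4b1 and Cyp2j5. Neither was called at 64 h (all genes 4.39% lower and 4.5% higher) or at 96 h (26.7% and 12.6%), and both were higher at 28 d (all genes 5.04%), Cyp2j5 at 52.9 and 133 CPM on 21 and 15 UMIs. In thin limb-like nuclei 5 did, of which Cyp2j13, Cyp2j5, Cyp4b1 and Cyp7b1 were lower at 64 h (all genes 10.2%). There the PT markers stood at 30.8% of their PT level without injury and at 8.68% at 64 h, so these members and the PT markers were lower together, and the part of PT RNA in that was not tested. At 96 h Cyp2j13, Cyp4a10 and Cyp7b1 had 0 UMIs there, against 41, 25 and 69 without injury (all genes lower 15.3%), with PT markers at 14.97%. Against a floor of 3 counts, Cyp2j13 was at least 2.61-fold, Cyp7b1 at least 4.39-fold and Cyp4a10 at least 1.59-fold lower, so the last does not reach the limit. At 28 d Cyp7b1 was lower (all genes 6.49%) and Cyp4a10 higher (all genes 5.87%), with PT markers at 30.8%.

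The share of PT-like nuclei with a UMI followed the levels. Nuclei were thinned to 600 UMIs each, which left out 0 nuclei without injury, then 99 at 64 h, 1549 at 96 h and 270 at 28 d, from classes with median depths of 1929, 1319, 506 and 984 UMIs. Cyp7b1 was then detected in 7.37%, 0.461%, 1.59% and 7.34% of PT-like nuclei (10.3%, 0.654%, 0.911% and 8.68% before thinning), and in 1.56% of TAL-like nuclei without injury. Cyp2a5 was detected in 0.305%, 4.49%, 0.925% and 0.367% (1.05%, 8.50%, 0.867% and 0.827%). In TAL-like nuclei at 64 h, with a median depth of 1032 UMIs, it was detected in 1 of 189 thinned nuclei, or 0.529% (1.49% before thinning). Cyp2d12 was detected in 6.41%, 0.922%, 0.528% and 3.83% of PT-like nuclei (14.0%, 1.80%, 0.781% and 5.05%), against 2.80% of TAL-like nuclei without injury at a median depth of 1118 UMIs. At 64 h, Cyp7b1 and Cyp2d12 were both found in 0 of 189 thinned TAL-like nuclei, which allows a share of up to 1.59%.

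Cyp4b1 was detected in 21.5%, 20.4%, 21.3% and 40.6% of thinned PT-like nuclei (50.7%, 39.0%, 19.04% and 57.1% before thinning). In TAL-like nuclei it was detected in 5.30% without injury and 14.6% at 28 d (10.9% and 16.3% before thinning), where the median depth at 28 d was 655 UMIs. The gain at 28 d was thus seen as more nuclei with a UMI in both classes. Cyp2j13 was detected in 20.5%, 14.9%, 7.79% and 29.3% of PT-like nuclei (47.1%, 28.6%, 9.15% and 43.8%), against 1.25% (4.67%) of TAL-like nuclei without injury.

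Members with fewer UMIs are given by counts. Of the 68, Cyp2f2, known for naphthalene oxidation in lung, had 29 UMIs in PT-like nuclei without injury and 2, 0 and 1 at 64 h, 96 h and 28 d. Cyp2u1 had 15, 0, 0 and 2, and Cyp2r1, a vitamin D hydroxylase, had 14, 1, 0 and 1. Cyp2ab1 had 2, 1, 6 and 13. These 4 were picked after their counts were seen, and at this depth no fold is given for them.

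Genes that serve or regulate P450 enzymes were followed beside the members, from a list of 39 genes of which 35 had at least 40 UMIs. At 64 h, 2 were lower and 6 higher, at 96 h 2 and 6, and at 28 d 1 and 1; the background shares are those of the members. Por, the shared electron donor, had 211 CPM without injury, then 352 at 64 h, 290 at 96 h and 238 at 28 d, with ratios of 1.67, 1.37 and 1.13. Cytochrome b5 (Cyb5a), which aids some P450 reactions, was 2.02-fold [1.83 to 2.24] higher at 64 h, and Cyb5b had ratios of 1.05, 0.895 and 0.802. Fdxr, the donor side of mitochondrial members such as Cyp27a1, was 0.415 [0.194 to 0.810] at 64 h and 2.28 [1.39 to 3.69] at 96 h. Alas1, the first enzyme of haem synthesis, had ratios of 0.801, 0.570 and 0.979, and Hmox1, which breaks haem down, 2.84 [2.07 to 3.92], 4.56 [3.26 to 6.403] and 1.05.

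Among the regulators, Nr1h4, the bile acid receptor FXR, had 893 CPM without injury, then 648 at 64 h, 365 at 96 h and 902 at 28 d, and was called lower at 96 h (0.409 [0.371 to 0.450]). Hnf4a had ratios of 1.01, 1.19 and 1.5. Ppara was within 2-fold at each time, with ratios of 1.67, 1.16 and 1.03. Cebpb was higher at all times, with 4.74, 20.5, 63.0 and 17.9 CPM on 23, 55, 81 and 43 UMIs. Ahr, the aryl hydrocarbon receptor gene, was 3.54-fold [2.07 to 6.21] higher at 64 h on 43 UMIs. Uros (0.424) was lower at 64 h, Cyb5r3 (2.86 and 3.77) was higher at 64 h and 96 h, Pgrmc1 (2.61) at 64 h, and Pgrmc2 (2.13) and Rxra (2.02) at 96 h. Nr1i2, at 0.448 [0.151 to 1.11] on 6 UMIs, was past the limit at 28 d with an interval that spans 1.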

How the data were processed

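Nuclear RNA was measured in 5 droplet libraries, 1 per group. The deposited matrices hold UMI counts per gene and barcode, which the authors made on mm10 with a pre-mRNA reference, using Cell Ranger 2.1, STAR 2.5.1b and bcl2fastq 2.17, per the submitters' processing notes and the labels' protocols; counting over introns gives long genes more UMIs, and the rule for calling barcodes is not given in the sources used here. Barcodes under 200 genes or above 10% mitochondrial UMIs were dropped. This left out 1 GFP-negative and 306 barcodes at 96 h. Doublets were not called, and an alternative left out the deepest 5% of nuclei.

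For clustering, each nucleus was scaled to 10000 UMIs and logged. From 2000 variable genes without any P450 gene, the Leiden method (resolution 1.0, seed 0, 15 neighbours in 30 principal components, no integration) gave the clusters. A cluster took the name of its best marker class, scored as mean log2 level over the 25th percentile of clusters with 10 CPM added. Names needed at least 3 detected markers, a margin of 0.3 and no other class with more markers among the 10 leading genes; clusters over 1.5 times as deep as their library whose next class scored over 1.5, or led by injury genes, stayed unnamed. The limits of this scoring were set with the data seen.

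UMIs were summed per library and class. Ratios carry exact conditional Poisson intervals and log2 ratios a pseudocount of 1 CPM; members needed 40 UMIs over the summed libraries (20 for the segment pattern). A floor of 3 counts served for sums of 0. Tested on simulated Poisson counts, the script recovered known ratios. These counts held no spread between animals and no change in the makeup of nuclei, so this checks the calculation only. Positions are from GENCODE vM21 (GRCm38), with all 99 members matched by identifier. TMM factors came from edgeR 4.0.16 (R 4.3.3). All else used scanpy 1.11.5, igraph 0.11.9, scipy 1.17.1, pandas 2.3.3 and numpy 2.4.6 in Python 3.11.15.

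Named members were the 12 with the most UMIs without injury, the 8 with the largest ratios per time and direction whose interval excludes 1, members highest outside the PT with at least 20 UMIs in that class, and the Cyp2j, Cyp4a, Cyp4f, Cyp2c and Cyp4b members. Of the partner genes, these were the 6 with the most UMIs and any past 2-fold. Some partner genes that this rule names are not reported here. Other members named were chosen after their values were seen. Members and lists were chosen with earlier results of these data known. Alternatives changed the filters, the clustering, the scaling, the fold and the class of nuclei.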

Additional observations from a re-analysis of the deposited data

Results flagged for a closer look

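Cyp2j13 in PT-like nuclei lay on opposite sides of the library without injury at different times. Its ratio was 0.718 at 64 h and 0.444 at 96 h, and 1.58 at 28 d. The difference between the times was not tested, since each time had 1 library and all share the same control.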

How the results depend on the processing

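No paired analysis was possible because each group had 1 library. Over the counts and medians of the comparisons, 120 alternative values stayed within 1.5 times the reported count or close to the reported median, and 37 moved. Of 282 alternative values for 26 member ratios past 2-fold, 279 kept their direction and 245 also stayed past 2-fold. For most alternatives the number of members tested and the share of all genes called are not given here. Other UMI or fold limits and scalings also change the calls for all genes. The counts that follow thus show how calls moved and are not read against a background. At 64 h, where 4 members were higher, it was 2 with at least 200 UMIs and 2 in S1-like nuclei. At 96 h, where 7 were lower and 5 higher, at least 10 UMIs gave 12 lower and 8 higher, at least 200 UMIs 2 higher, TMM factors 3 higher, a 1.5-fold limit 9 higher, and S1-like nuclei 2 higher. Without the S3-like and Slco1a1-led clusters it was 3 lower and 9 higher, with a median log2 ratio of 0.40 in place of -0.13. At 28 d, where 0 were lower and 2 higher, at least 10 UMIs gave 3 lower and 6 higher, and a 1.5-fold limit 4 lower and 10 higher. Thinning to 600 UMIs gave 1 lower and 4 higher, adding the injury-led cluster 1 lower and 0 higher, and leaving out the S3-like and Slco1a1-led clusters 1 lower and 6 higher. There was 1 lower with stricter limits on nuclei and 1 lower in S1-like nuclei, and 0 higher with TMM factors, 1 higher with at least 200 UMIs, 1 without the deepest 5% of nuclei and 1 over all GFP-positive nuclei. The settings with S1-like nuclei alone and without the S3-like and Slco1a1-led clusters were chosen after seeing the data. There 3 log2 ratios at 96 h turned positive: Cyp2d9 at 0.061 and Cyp2j6 at 0.043 in S1-like nuclei, and Cyp7b1 at 0.49 without those clusters. The values in S1-like nuclei rest on 155 nuclei at 96 h. For Cyp7b1, 2264 of 2306 PT-like nuclei were kept at 96 h and 1116 of 2292 without injury. The S3-like nuclei, which carried most Cyp7b1 UMIs without injury, were among those left out. The cause was not tested. Between the sort gates, PT-like nuclei alone gave 5 members higher in GFP-positive and 5 in GFP-negative nuclei, in place of 14 and 9. Members higher in GFP-negative nuclei were 15 with at least 10 UMIs, 2 with at least 200 UMIs and 5 with TMM factors. The segment count of 18 of 40 moved under no alternative tried. Partner genes lower at 64 h were 0 over all GFP-positive nuclei. At 96 h they were 4 lower and 3 higher with TMM factors and 1 lower over all GFP-positive nuclei, and at 28 d 0 were lower over all GFP-positive nuclei. Depth limits the 96 h library most, where 306 barcodes were left out and Cyp2j7, called lower, had 4 UMIs in PT-like nuclei.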

Other observations

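A cluster led by Krt20, Vcam1 and Havcr1, genes of injured tubule, stayed unnamed and lay outside the PT-like nuclei. Its nuclei numbered 54 in the GFP-positive library without injury and 331, 292 and 291 at the 3 times in order. PT markers there stood at 50.3%, 38.8%, 35.3% and 40.7% of their PT-like level in the same library. Cyp4b1 stood at 0.354 [0.213 to 0.554], 0.684 [0.589 to 0.793], 0.475 [0.354 to 0.626] and 0.321 [0.266 to 0.384] of its PT-like level. Cyp4a10 stood at 0.273, 0.410, 0.361 and 0.402 and Cyp2e1 at 0.0891, 0.115, 0.254 and 0.405. Cyp2j13 had ratios of 1.30 [0.995 to 1.66], 0.659, 0.454 [0.282 to 0.697] and 0.793. It thus lay above the PT markers in 4 of 4 libraries, although its interval at 96 h spans their level. A place above the PT markers was not particular to Cyp2j13. All members summed stood at 53.0%, 55.3%, 60.6% and 46.4% of their PT-like level, and Cyp2j5 had ratios of 0.814, 0.507, 0.547 and 0.639. Cyp2a5 at 64 h was present in this cluster too, with 45 UMIs (58.6 CPM) and a ratio of 0.694 [0.492 to 0.959] to the PT-like nuclei. Cyp7b1 at 28 d stood at 0.109 [0.0725 to 0.159].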
